A study of Canis lupus familiaris with 12 samples.

Results

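MDCK cells held in Yoda1 were compared between 12 h and 24 h of exposure. The members are the 6 libraries that the deposited sample sheet lists as Yoda1 treatment, 3 at 12 h (T1) and 3 at 24 h (T2), out of 12 libraries in the series. Both groups received 25 µM Yoda1, and the labels tell them apart by time. The other 6 libraries are untreated cells at 12 h (C1) and 24 h (C2), for which the labels name no vehicle. They stayed out of the test of T2 against T1 and are given as background. All groups are bulk polyadenylated RNA of 1 established cell line, and the labels do not say whether the 3 libraries of a group came from separate cultures. The p-values therefore rest on library-to-library spread alone, and that spread may be technical.

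MDCK is a line of dog kidney epithelial cells that forms a polarised, tightly joined sheet and is widely used to study epithelial adhesion and collective movement. Piezo1 is a cation channel that opens when the membrane is stretched and lets calcium into the cell. Yoda1 is a small molecule that opens Piezo1 without mechanical force, and calcium entry through the channel is known to reach kinase cascades, transcription factors and the actomyosin cytoskeleton. In renal epithelium, Piezo1 is studied for its part in sensing flow, stretch and crowding. The files pair no gene ID with the symbol PIEZO1, so the channel's own transcript could not be followed by name.

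Library totals ran from 25822695 to 30999725 counts in T1 and from 27915926 to 36545726 in T2, and the sample sheet gives lane 5 for every library. The epithelial label was checked against markers: 6 of 13 renal epithelial markers are named in the files, and their summed level was 1910 to 2130 CPM (counts scaled to library size) in T1 and 1660 to 1800 CPM in T2, without overlap. CDH1, which encodes E-cadherin, gave 786, 706 and 703 CPM in T1 replicates 1, 2 and 3 and 691, 668 and 663 CPM in T2, a log2 fold change of -0.11 ± 0.07 (SE) that did not pass the test (edgeR adjusted p = 0.44). The summed fibroblast markers were at 4 to 4.97 CPM in T1 and 5.62 to 6.63 CPM in T2, also without overlap. Most of the sum was PDGFRA, at 3.58, 2.94 and 3.86 CPM in T1 and 4.68, 4.64 and 5.25 CPM in T2 (edgeR adjusted p = 0.132). The 3 fibroblast markers tested had log2 fold changes above 0 (median 0.50), and none was called. Of the 12 genes 6, among them the collagen COL3A1 and the proteoglycans DCN and LUM, were at 0 in all treated libraries. Endothelial markers summed to 9.9 to 12.8 and 11.1 to 13 CPM over 6 of 10 genes, most of it KDR, and leukocyte markers to 1.69 to 3.29 and 1.94 to 2.63 CPM over 9 of 12 genes, with CD3D, CD4 and MS4A1 at 0.

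Between 12 h and 24 h of Yoda1, genes of the interferon-stimulated list fell in the highest share of the lists examined, and AREG, a ligand of the EGF receptor, had the highest fold change among the named genes. Of 13592 genes tested by edgeR's quasi-likelihood test in the 6 treated libraries, 247 were called at an adjusted p under 0.05, which is 1.82%. Of these, 151 (1.11%) rose and 96 (0.706%) fell, and 49 (0.361%) changed at least 2-fold. The median log2 fold change over all genes tested was 0.00215. Only 141 of the 247 called genes have a symbol, as do 7512 of the 13592 genes tested, and the 106 others are counted but not named. In each library 33.1% to 34.1% of the counts fall on IDs without a symbol. The treated groups did not overlap for any of the 247, against 22.7% of all genes tested, and 2241 genes (16.5%) had an unadjusted p under 0.05. The count rested on single libraries: it was 45 without T1 replicate 3, 74 and 79 without T2 replicates 2 and 3, and 389 without T2 replicate 1. In every fit that left out 1 treated library, 39 genes were called, 23 higher and 16 lower. With all 12 libraries in 1 fit 17 genes were called, and with DESeq2 577.

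**Figure D1:**
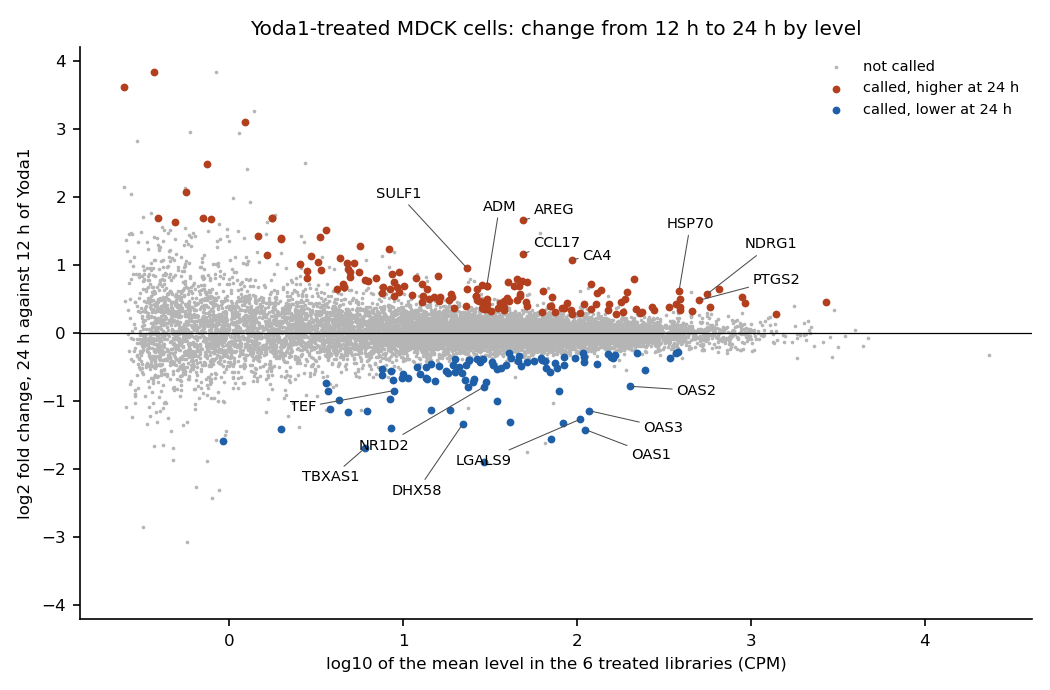
Log2 fold change of T2 against T1 (y axis) against the log10 mean level in the 6 treated libraries in CPM (x axis), 1 point per gene tested. Coloured points passed edgeR's adjusted p under 0.05. AREG is the highest labelled gene and TBXAS1 the lowest, and 5 genes beyond 4.2 in either direction are not drawn.

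The interferon-stimulated list holds genes that type I and type III interferons switch on, most of which encode proteins that sense or restrict viral RNA. Of 17 members tested, 8 fell and none rose (47.1% called, against 0.706% of all genes called lower). The median log2 fold change was -0.91, against 0.00215 over all genes tested, and in 13 of 17 the T2 libraries all lay below the T1 libraries, as they did in 11.7% of all genes tested. Because these are bulk samples, fewer cells expressing a gene and less RNA per cell cannot be told apart. Between 6 and 11 members were called under the alternatives that were run.

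The oligoadenylate synthetases, which make the messenger that activates RNase L on double-stranded RNA, fell together. OAS3 (ENSCAFG00845022113) was at 142, 189 and 156 CPM in T1 replicates 1, 2 and 3 and at 77.2, 67.1 and 75.1 CPM in T2. Every T2 library was near the same level and well under the lowest T1 library. Its mean fell from 162 ± 24 to 73.1 ± 5.33 CPM (SD, n = 3 per group), a log2 fold change of -1.14 ± 0.10 (SE, edgeR adjusted p = 0.000983). OAS2 (ENSCAFG00845022313) gave 234, 285 and 252 CPM in T1 and 132, 147 and 168 CPM in T2, again without overlap (-0.78 ± 0.10, edgeR adjusted p = 0.00542). OAS1 (ENSCAFG00845021979) gave 129, 199 and 160 CPM against 51, 53.8 and 76.9 CPM (-1.42 ± 0.21, edgeR adjusted p = 0.0355). Its T1 libraries were the most spread of the family, and the call was lost without T1 replicates 2 or 3 or T2 replicates 1 or 2 (edgeR adjusted p up to 0.151). OASL, which is paired with 2 IDs, was not called at either.

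Sensors and regulators of the interferon system moved in the same direction. DHX58 (ENSCAFG00845010366), the helicase LGP2 that tunes RNA sensing by RIG-I and MDA5, was at 27.6, 36.6 and 30.8 CPM in T1 and 11.9, 11.7 and 13.9 CPM in T2. The T2 libraries were tightly grouped, and the fall was 2.52-fold (log2 -1.33 ± 0.12 SE, edgeR adjusted p = 0.000919). USP18 (ENSCAFG00845030962), which removes ISG15 from proteins and restrains the interferon receptor, fell from 39.5, 52.7 and 46.1 CPM to 18.9, 22.7 and 26.9 CPM (edgeR adjusted p = 0.00782), means of 46.1 ± 6.62 and 22.8 ± 3.98 CPM. PARP9 (ENSCAFG00845023649), a macrodomain protein that works with the ubiquitin ligase DTX3L, fell from 23.9, 24.9 and 28.2 CPM to 10.9, 10.1 and 13.6 CPM (-1.14 ± 0.12, edgeR adjusted p = 0.00192). IFI35 (ENSCAFG00845006373), an interferon-induced leucine zipper protein, was at 9.26, 15.7 and 12 CPM in T1 and 4.55, 4.11 and 5.34 CPM in T2 (-1.39 ± 0.19, edgeR adjusted p = 0.00782). In none of these 4 genes did the groups overlap, and these 4, OAS2 and OAS3 stayed called whichever treated library was left out. TNFSF10, the death ligand TRAIL, fell from 21.1 ± 1.41 to 14.3 ± 1.33 CPM (-0.55 ± 0.10, edgeR adjusted p = 0.0225), a call lost without T1 replicate 3 or T2 replicate 2 (edgeR adjusted p up to 0.122).

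**Figure D2:**
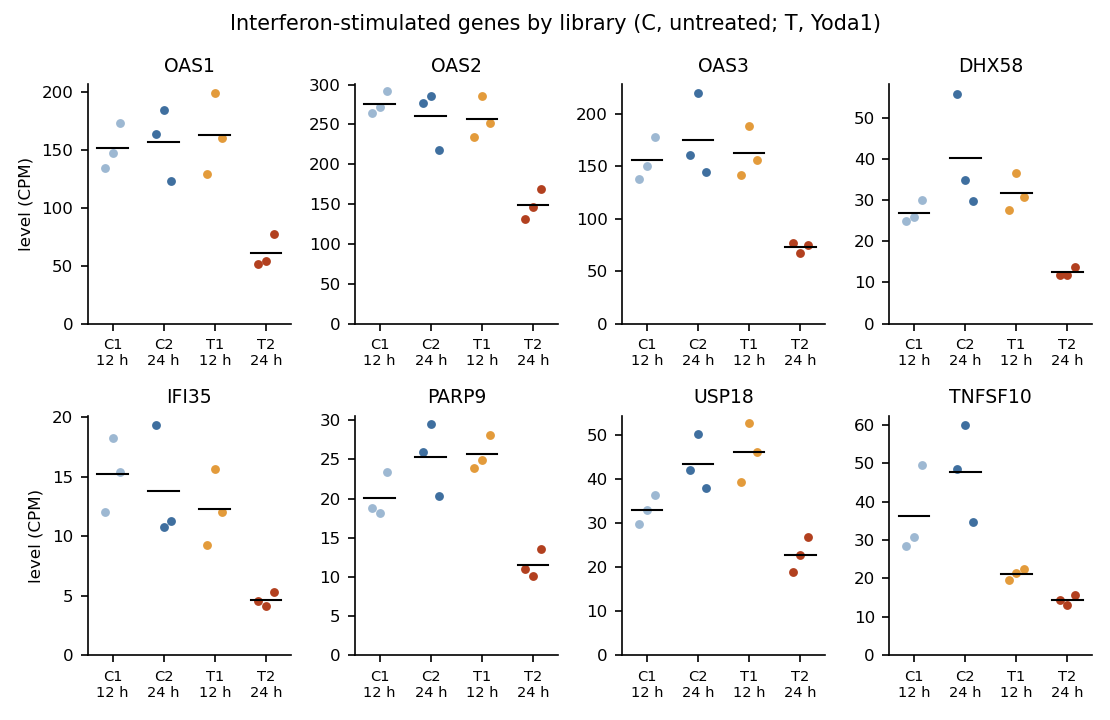
Levels in CPM (y axes, from 0) of the 8 called members of the interferon-stimulated list in each library of C1, C2, T1 and T2 (x axes). Points are libraries and bars are group means. The 3 T2 libraries lie below the 3 T1 libraries in each panel.

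Outside that list, LGALS9, which encodes galectin-9, and RTP4, an interferon-induced chaperone of membrane receptors, were named by the rule on the lowest fold changes. LGALS9 was at 120, 181 and 141 CPM in T1 and 50.2, 60.3 and 72.4 CPM in T2 (-1.27 ± 0.18, edgeR adjusted p = 0.0209), and RTP4 at 6.64, 9.13 and 9.87 against 3.44, 3.55 and 4.45 CPM (-1.15 ± 0.17, edgeR adjusted p = 0.0119). Both lost the call without T1 replicate 3 or T2 replicate 2 (edgeR adjusted p up to 0.116 for LGALS9 and up to 0.0715 for RTP4). Further called genes of interferon biology, chosen after their values were seen, were DTX3L, the partner of PARP9 (-0.68 ± 0.09, edgeR adjusted p = 0.0069), the peptide transporter subunit TAP2 (-0.42 ± 0.06, edgeR adjusted p = 0.0123), the adaptor MYD88 (-0.43 ± 0.06, edgeR adjusted p = 0.00945) and the ISG15-conjugating enzyme UBE2L6 (-0.48 ± 0.10, edgeR adjusted p = 0.0396). DTX3L stayed called whichever treated library was left out. MYD88 lost its call without T1 replicate 3 (edgeR adjusted p = 0.0731), TAP2 without T1 replicate 3 or T2 replicates 2 or 3 (up to 0.0812) and UBE2L6 in all such fits but that without T1 replicate 1 (up to 0.181).

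Other members of the list were not called. IRF9, a transcription factor of the interferon response, was at -0.23 ± 0.07 (edgeR adjusted p = 0.141). MX1, an antiviral GTPase, gave 69.5, 135 and 91.3 CPM in T1 and 26, 28 and 42.3 CPM in T2. Its groups did not overlap, but the spread within T1 was wide and the log2 fold change of -1.61 ± 0.32 did not pass the test (edgeR adjusted p = 0.0975). IRF9 and MX1 belong to the list but were named here after their values were seen.

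In untreated cells over the same step the interferon list had a median log2 fold change of 0.236, and edgeR called none of its members. OAS3 was at 138, 151 and 178 CPM in C1 and 161, 220 and 145 CPM in C2, so the C1, C2 and T1 libraries overlapped and the T2 libraries lay below them all. DHX58 was likewise at 24.9, 26 and 30 CPM in C1 and 56, 35 and 29.9 CPM in C2. The change in treated minus the change in untreated cells was called for 4 of the 17 members, DHX58 (-1.92), PARP9 (-1.48), USP18 (-1.41) and OAS3 (-1.32), against 0.0956% of all genes tested with a lower difference. These differences are taken up again with the other genes of that test.

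Amphiregulin is a membrane-anchored EGF receptor ligand that is released by ADAM17, and AREG (ENSCAFG00845006713) had the highest fold change of the genes named by the rule. It was at 25.2, 25.8 and 20.2 CPM in T1 replicates 1, 2 and 3 and at 65.6, 78 and 79.8 CPM in T2. The lowest T2 library was above each T1 library by a wide margin, and the mean rose 3.15-fold, from 23.7 ± 3.05 to 74.5 ± 7.71 CPM (log2 1.65 ± 0.11 SE, edgeR adjusted p = 0.000205). The call held without each treated library in turn. In untreated cells AREG was at 17.2, 15.2 and 13.1 CPM in C1 and 12.7, 4.32 and 3.96 CPM in C2, and the difference between both changes was 2.76 ± 0.50, which missed the threshold (edgeR adjusted p = 0.0658). In the fit of all 12 libraries the change of AREG in treated cells was not called (edgeR adjusted p = 0.131).

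AREG was the 1 called gene among 7 ligands, receptors and sheddases of the EGF receptor family (14.3%, median log2 fold change -0.07). The other 6, the receptors ERBB2 and ERBB3 and the sheddases ADAM10 and ADAM17 among them, had log2 fold changes between -0.15 and 0.01 and were not called. Of 11 genes of MAP kinase feedback 1 rose (9.09%, against 1.82% of all genes called), ERRFI1 (ENSCAFG00845027497), an induced inhibitor of the EGF receptor kinase. ERRFI1 was at 116, 102 and 105 CPM in T1 and 166, 173 and 163 CPM in T2. The groups were far apart for their spread, with a log2 fold change of 0.64 ± 0.07 (edgeR adjusted p = 0.00226), and the call held in every alternative run. The other 10 members, dual-specificity phosphatases and Sprouty genes among them, were not called, and their log2 fold changes were all below 0, down to -0.32 for DUSP5 (edgeR adjusted p = 0.0966). The list's median was -0.14.

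Prostaglandin synthesis starts with the release of arachidonic acid by a phospholipase, which cyclooxygenase then converts. Of 9 genes tested 2 rose, 1 for each step, and 1 for a terminal synthase fell (33.3%, median -0.02). In all, 4 lay above 0 and 5 below. PTGES, a prostaglandin E synthase, and HPGD were named here after their values were seen. PTGES went from 23.4 to 33.4 CPM (0.52 ± 0.13, edgeR adjusted p = 0.0751) and HPGD from 1.86 to 2.88 CPM (0.63 ± 0.19, edgeR adjusted p = 0.128). Neither was called, though the T2 libraries of each lay above its T1 libraries. PTGS2, the inducible cyclooxygenase, was at 441, 391 and 425 CPM in T1 and 644, 575 and 524 CPM in T2 (0.48 ± 0.09, edgeR adjusted p = 0.026), a call lost without T1 replicates 2 or 3 or T2 replicate 2 (edgeR adjusted p up to 0.122). PLA2G4A, the cytosolic phospholipase A2, was at 115, 100 and 105 CPM in T1 and 132, 140 and 136 CPM in T2 (0.36 ± 0.07, edgeR adjusted p = 0.0305), a call lost without T1 replicate 3 or T2 replicates 2 or 3 (edgeR adjusted p up to 0.163). Both genes were without overlap, with the T2 libraries higher.

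TBXAS1 (ENSCAFG00845031075), thromboxane A synthase, was at 9.26, 9.39 and 9.03 CPM in T1 and 2.6, 2.85 and 3.07 CPM in T2. Its T1 and T2 libraries were each within a narrow band, and the fall was 3.23-fold (log2 -1.69 ± 0.12 SE, edgeR adjusted p = 0.000274), kept in each fit that left out 1 treated library. Among untreated libraries the gene was far more variable, at 8.24, 9.82 and 7.18 CPM in C1 and 0.928, 36 and 16 CPM in C2. The difference between both changes was -2.75 ± 1.21 and did not pass the test (edgeR adjusted p = 0.477), nor did the change in treated cells with all 12 libraries in the fit (edgeR adjusted p = 0.613).

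Clock genes encode a transcriptional feedback loop that runs in most cells, and 3 of the 12 tested fell while none rose (25%, median -0.23). They are output or repressor genes under direct control of the loop. NR1D2, the nuclear receptor REV-ERB beta, was at 38.6, 31.6 and 40.4 CPM in T1 and 23.6, 19.9 and 19.9 CPM in T2 (-0.79 ± 0.11, edgeR adjusted p = 0.00999). TEF, a PAR-domain transcription factor, fell from 12, 10.6 and 11.6 CPM to 6.85, 5.34 and 6.71 CPM (-0.84 ± 0.12, edgeR adjusted p = 0.0113). NR1D1, REV-ERB alpha, fell from 31.8 ± 2.57 to 23.6 ± 1.18 CPM (-0.42 ± 0.08, edgeR adjusted p = 0.0381). For each gene the T2 libraries lay below the T1 libraries. Without T1 replicate 3 none of the 3 was called (edgeR adjusted p = 0.06 for NR1D2, 0.0693 for TEF and 0.183 for NR1D1), and in the fit of all 12 libraries the count was also 0. NR1D1 lost its call as well without T1 replicate 2 or T2 replicates 2 or 3.

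The other clock genes tested gave log2 fold changes from -0.41 to 0.24, and none of these 9 was called. In untreated cells the list's median was 0.36, opposite in sign to the treated cells, with no member called by edgeR. NR1D2 was at 18.7, 19 and 23.5 CPM in C1 and 22.9, 33.3 and 29.9 CPM in C2, and TEF at 8.39, 10.5 and 10.2 CPM in C1 and 14.2, 22.8 and 19.4 CPM in C2. The difference between both changes was called for NR1D2 and TEF.

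**Figure D3:**
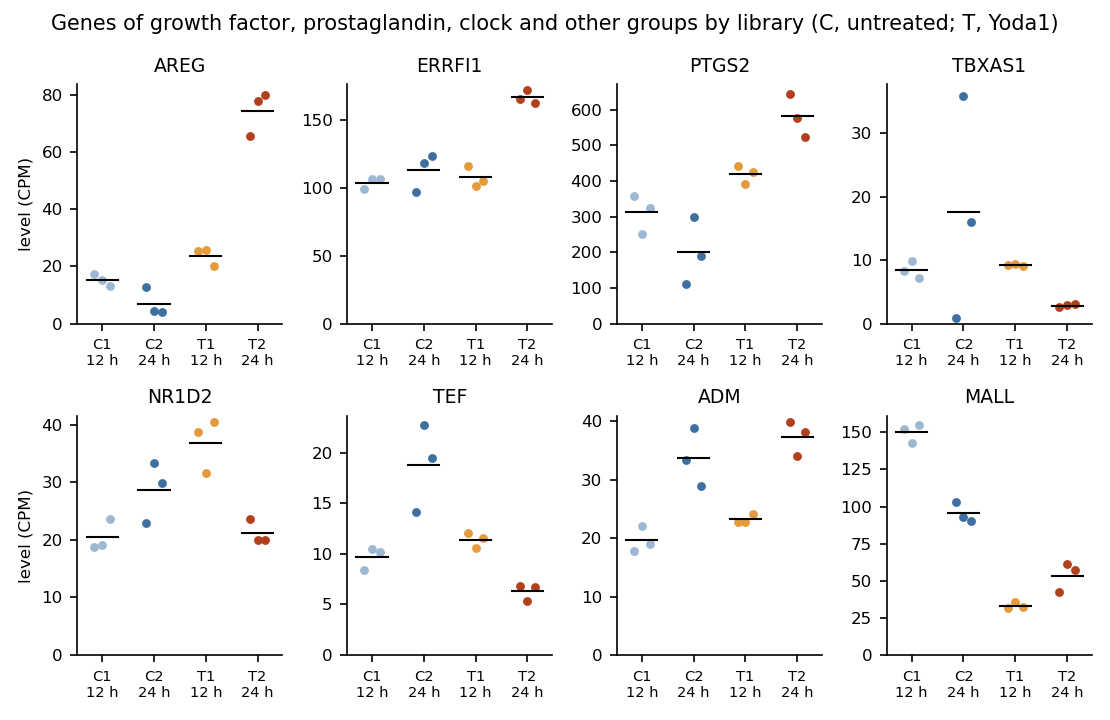
Levels in CPM (y axes, from 0) in each library of C1, C2, T1 and T2 (x axes) for 8 genes of the EGF receptor, prostaglandin, clock, hypoxia and membrane raft groups. Points are libraries and bars are group means. AREG, ERRFI1, PTGS2, ADM and MALL are higher in T2 than in T1 without overlap, and TBXAS1, NR1D2 and TEF are lower.

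Genes that low oxygen induces through HIF1A had medians above 0 in both treated and untreated cells. Of 14 tested in treated cells 3 rose and none fell (21.4%, median 0.165 in treated and 0.189 in untreated cells, in which edgeR called none). ADM, the vasodilator peptide adrenomedullin, was at 22.7, 22.8 and 24.1 CPM in T1 and 39.8, 34.1 and 38.3 CPM in T2 (0.70 ± 0.08, edgeR adjusted p = 0.00411), and kept its call in every alternative run. Its untreated libraries were at 19.6 ± 2.22 CPM in C1 and 33.7 ± 5.02 CPM in C2, and the difference between both changes was -0.09 ± 0.16. NDRG1, a stress-responsive gene, rose from 449, 461 and 444 CPM to 762, 627 and 608 CPM (0.57 ± 0.09, edgeR adjusted p = 0.0146), a call lost without T1 replicate 3 (edgeR adjusted p = 0.0888). The other 11 members were not called and ranged from -0.38 to 0.55, and the T2 libraries lay above the T1 libraries in 7 of the 14 and below in 1. Over all genes tested they lay above in 11% and below in 11.7%.

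Of 15 glycolytic enzymes and transporters 2 rose (13.3%, against 1.82% of all genes called), with a median of 0.10 in treated and 0.19 in untreated cells. ALDOC, an aldolase isoform, rose from 34.1, 36.5 and 37.4 CPM to 73.2, 50.6 and 57.6 CPM (0.76 ± 0.12, edgeR adjusted p = 0.0199), a call lost without any of the 3 T1 libraries (edgeR adjusted p up to 0.0879). PGK1, phosphoglycerate kinase, which is in both lists, rose from 316 ± 6.55 to 423 ± 36.4 CPM (0.43 ± 0.07, edgeR adjusted p = 0.0216). PGK1 lost the call without T1 replicate 3 or T2 replicate 3 (edgeR adjusted p up to 0.114). The 13 others ranged from -0.43 to 0.39, and 1 of these, SLC2A1, is also in the hypoxia list.

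Genes of the amino acid and integrated stress response, which ATF4 induces, fell where they were called: 3 of 21 tested (14.3%, median -0.11). CHAC1, which degrades glutathione, was at 30.2, 36.8 and 27.2 CPM in T1 and 15.3, 21.6 and 19.9 CPM in T2 (-0.72 ± 0.14, edgeR adjusted p = 0.0336). DDIT4, an inhibitor of mTORC1, fell from 90 ± 4.96 to 62.9 ± 9.52 CPM (-0.51 ± 0.10, edgeR adjusted p = 0.0398), and SLC3A2, the heavy chain of amino acid exchangers, from 168 ± 10.1 to 135 ± 3.96 CPM (-0.30 ± 0.06, edgeR adjusted p = 0.0396). All 3 lost the call in 5 of the 6 fits that left out 1 treated library. CHAC1 and DDIT4 kept it only without T2 replicate 1, and SLC3A2 only without T1 replicate 1 (edgeR adjusted p up to 0.0858, 0.16 and 0.165). The 18 others ranged from -0.57 to 0.10, and in 8 of the 21 members the T2 libraries all lay below the T1 libraries, against 0 in which they lay above. Over all genes tested they lay below in 11.7% and above in 11%.

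Chaperone genes did not move as 1 group. HSP70 (ENSCAFG00845012950), so named in the files and not on the heat shock list, rose from 303, 286 and 327 CPM to 459, 456 and 488 CPM (0.62 ± 0.07, edgeR adjusted p = 0.00235). The T2 libraries all exceeded the T1 libraries, and the call held without each treated library in turn. Of 13 listed heat shock genes 1 rose, the HSP70 co-chaperone DNAJB1 (0.37 ± 0.06, edgeR adjusted p = 0.0216), and 1 fell, the small heat shock protein HSPB8. The list median was 0.07, and 15.4% of the list was called, against 1.82% of all genes tested. HSPB8 fell from 17.5, 21.6 and 17.9 CPM to 11.3, 11.2 and 12.3 CPM (-0.70 ± 0.10, edgeR adjusted p = 0.0112), while untreated cells were at 26.5 ± 3.65 CPM in C1 and 41.2 ± 14.3 CPM in C2. The untreated change was not called (edgeR adjusted p = 0.649), nor was the difference between both changes (-1.34 ± 0.28, edgeR adjusted p = 0.0763). DNAJB1 lost the call without T1 replicates 1 or 3 or T2 replicates 2 or 3 (edgeR adjusted p up to 0.115), and HSPB8 without T2 replicate 2 (edgeR adjusted p = 0.0513). Of 16 genes of the unfolded protein response edgeR called 0, DESeq2 called 1, the replicate block 2, and 2 had an unadjusted p under 0.05.

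Genes of several secreted and surface proteins rose. CCL17, a chemokine, was at 27.2, 32.2 and 31.1 CPM in T1 and 71.7, 61.5 and 68.9 CPM in T2 (1.17 ± 0.09, edgeR adjusted p = 0.000396). CA4, a membrane-anchored carbonic anhydrase, was at 56.5, 68.3 and 56.2 CPM in T1 and 104, 135 and 142 CPM in T2 (1.08 ± 0.12, edgeR adjusted p = 0.00272). SPINK5, an inhibitor of serine proteases, rose from 97.6, 89.3 and 88.2 CPM to 139, 166 and 146 CPM (0.72 ± 0.08, edgeR adjusted p = 0.0023). The groups did not overlap in any of these genes, and all kept the call without each treated library in turn. In the fit of all 12 libraries none of them was called (edgeR adjusted p = 0.449 for CCL17, 0.163 for CA4 and 0.51 for SPINK5). In untreated cells their levels spread widely at 24 h, for CCL17 from 36.7 to 162 CPM in C2. The C1 and C2 means were 63.7 and 90 CPM for CCL17, 128 and 97.6 CPM for CA4, and 201 and 224 CPM for SPINK5. In each gene every T1 library lay below every C1 library, and the T2 libraries overlapped those of C2.

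Further genes that kept their call in each such fit were TMEM45B, which rose from 11.4, 10.3 and 12.8 CPM to 21.1, 20.2 and 19.8 CPM (0.83 ± 0.10, edgeR adjusted p = 0.00411), and KIF1A, an axonal transport kinesin, from 22.2, 21 and 26.5 CPM to 40.2, 34.5 and 36.9 CPM (0.69 ± 0.10, edgeR adjusted p = 0.0119). PAQR8, a membrane progestin receptor, fell from 38.1, 38 and 35.4 CPM to 25.3, 20.9 and 21.5 CPM (-0.71 ± 0.09, edgeR adjusted p = 0.00654). The groups of each gene were separated, and KIF1A was 1 of 2 that rose among 28 microtubule motors and regulators (7.14%, median 0.03), with the tubulin TUBB4A (0.60 ± 0.13, edgeR adjusted p = 0.0494). TUBB4A lost its call without T1 replicates 1 or 3 or T2 replicates 2 or 3 (edgeR adjusted p up to 0.209). In untreated cells TMEM45B was at 24.5 ± 1.67 CPM in C1 and 28.5 ± 7.45 CPM in C2, and KIF1A went from 19.7 ± 4.82 CPM in C1 to 37.6 ± 21.5 CPM in C2. The difference between both changes of KIF1A was -0.25 ± 0.48 (edgeR adjusted p = 0.909). With all 12 libraries in the fit TMEM45B and KIF1A were not called, nor was KIF1A with log2(TPM + 1).

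Genes that remodel the matrix and the cell surface were called in small numbers. Of 17 matrix proteases and inhibitors 2 rose (11.8%, median -0.09). SULF1, an extracellular sulfatase that edits heparan sulfate, rose from 16.2, 16.6 and 15.3 CPM to 25, 28.8 and 38.5 CPM (0.95 ± 0.14, edgeR adjusted p = 0.0118), and TIMP3, an inhibitor of metalloproteinases and of ADAM17, from 783 ± 16.7 to 1060 ± 148 CPM (0.44 ± 0.09, edgeR adjusted p = 0.0395). SULF1 lost the call without T1 replicates 2 or 3 (edgeR adjusted p up to 0.0731), and TIMP3 in 5 of 6 such fits, all but that without T2 replicate 1 (edgeR adjusted p up to 0.16). ITGA7, the laminin-binding integrin subunit alpha 7, stood outside the integrin list and was at 3.74, 3.03 and 3.6 CPM in T1 and 5.36, 7.67 and 8.11 CPM in T2 (1.03 ± 0.17, edgeR adjusted p = 0.0209). ITGA7 lost the call without T1 replicates 2 or 3 or T2 replicates 2 or 3 (edgeR adjusted p up to 0.0922). Hyaluronan synthase 2, HAS2, chosen after its values were seen, fell from 25.3, 28.9 and 30 CPM to 15.9, 16.4 and 19.5 CPM (-0.69 ± 0.10, edgeR adjusted p = 0.0113), a call lost without T1 replicate 3 or T2 replicate 2 (edgeR adjusted p up to 0.0731).

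Single members of signalling lists were called. The shares were 3.12% of calcium genes, 4.17% of TGF-beta and BMP genes, 6.25% of p53 targets and 6.67% of immediate early genes. Over all genes tested the share was 1.82%, and 1 call does not describe its list. RCAN1, a calcineurin inhibitor that calcium induces, was the 1 called of 32 calcium genes (0.33 ± 0.06, edgeR adjusted p = 0.0303, list median -0.03), at 236, 238 and 263 CPM in T1 and 305, 305 and 315 CPM in T2. In untreated cells RCAN1 also went up without overlap, from 186 ± 7.35 CPM in C1 to 217 ± 5.23 CPM in C2. The difference between both changes was 0.11 ± 0.09 and was not called (edgeR adjusted p = 0.749). BMP2 was the 1 called of 24 TGF-beta and BMP genes and fell from 16 ± 1.05 to 11.3 ± 0.177 CPM (-0.50 ± 0.09, edgeR adjusted p = 0.0225, list median -0.13). CCNG2, a cyclin linked to arrest, was the 1 called of 16 p53 targets and fell from 18.8 ± 0.616 to 13.3 ± 0.144 CPM (-0.49 ± 0.08, edgeR adjusted p = 0.0175). NR4A2 was the 1 called of 15 immediate early genes and fell from 4.53 ± 0.209 to 2.7 ± 0.342 CPM (-0.74 ± 0.15, edgeR adjusted p = 0.0405). The groups did not overlap in any of the 4.

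Each of these single calls was lost when some 1 library was left out. RCAN1 and NR4A2 kept theirs only without T2 replicate 1 (edgeR adjusted p up to 0.137 and 0.179), and BMP2 and CCNG2 lost theirs without T1 replicate 3 or T2 replicates 2 or 3 (edgeR adjusted p up to 0.118 and 0.0923). Likewise the WNT and Notch list had 2 of 21 that rose (9.52%, against 1.82% of all genes tested). These were the WNT ligand WNT10A (0.35 ± 0.07, edgeR adjusted p = 0.0396) and the secreted DKK3 (0.58 ± 0.12, edgeR adjusted p = 0.0421). The NRF2 list had 1 of 23 (4.35%), the thioredoxin reductase TXNRD1 (0.38 ± 0.08, edgeR adjusted p = 0.0396). All 3 lost the call without T1 replicate 3 or T2 replicates 2 or 3, WNT10A also without T1 replicate 1 and DKK3 also without T1 replicate 2 (edgeR adjusted p up to 0.199 for WNT10A and DKK3 and up to 0.163 for TXNRD1). MYH14, a non-muscle myosin heavy chain, was the 1 called of 18 actomyosin genes (5.56%). Its log2 fold change was 0.46 ± 0.07 (edgeR adjusted p = 0.016), and the call was lost without T2 replicates 2 or 3 (edgeR adjusted p up to 0.0735). The lysosomal protease CTSD rose from 729 ± 42 to 1047 ± 178 CPM (0.53 ± 0.11, edgeR adjusted p = 0.0429), a call lost without any T1 library or without T2 replicate 2 (edgeR adjusted p up to 0.181).

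The 4 lists of cell adhesion genes gave no call between the times in the 6 treated libraries, while ITGA7, outside them, rose as given above. In 12 adherens junction, 16 tight junction, 6 desmosome and hemidesmosome, and 15 integrin and focal adhesion genes edgeR called 0, with 3, 2, 4 and 7 at an unadjusted p under 0.05. DESeq2 called 1, 0, 1 and 2, limma voom 0 in each, and edgeR with the replicate number as a block 2, 1, 1 and 5. Without T2 replicate 1 edgeR called CDH2, DSG3 (at ENSCAFG00845010787), ITGA2 and ITGB3, and without T1 replicate 1 CLDN3 and TJP3. DSG3 is paired with 2 IDs, both counted among the 6 desmosome and hemidesmosome genes, and they moved in opposite directions. ENSCAFG00845010787 went from 123 to 179 CPM (0.55 ± 0.15, edgeR adjusted p = 0.122). ENSCAFG00845010678 went from 826 to 696 CPM (-0.24 ± 0.09, edgeR adjusted p = 0.196). The medians were -0.07, -0.05, -0.14 and -0.06. Members of these lists ranged from -0.38 (the tight junction scaffold TJP3, at 18.6, 27.1 and 24.2 CPM in T1 and 17.3, 18.4 and 17.6 CPM in T2) to 0.84 (N-cadherin, CDH2, at under 4 CPM). The p-values do not show that these genes held the same level.

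**Figure D4:**
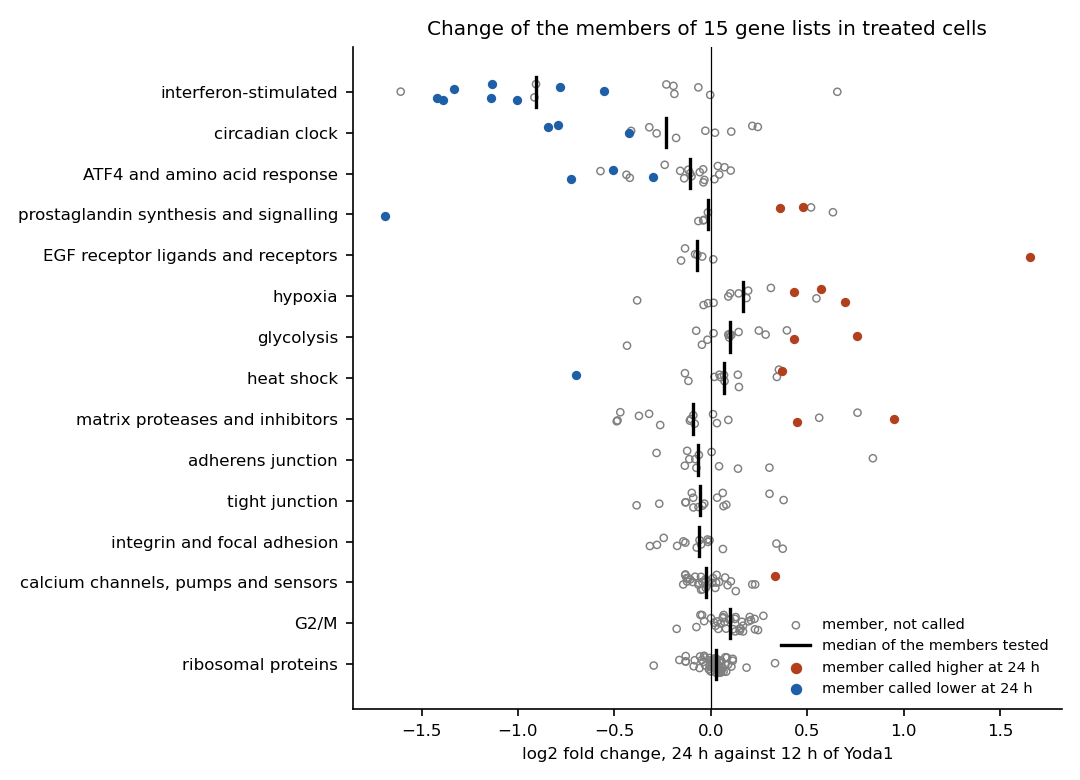
Log2 fold change of T2 against T1 (x axis) for the members of 15 gene lists (y axis), 1 point per gene tested. Filled points passed edgeR's adjusted p under 0.05 and bars are list medians. The interferon list lies furthest to the left, with a median of -0.91, and the adhesion and ribosomal lists lie around 0.

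Over all 18 lists without a call, which hold 316 list entries tested, 47 entries had an unadjusted p under 0.05, DESeq2 called 10, limma voom 0 and edgeR with the replicate block 32. Cell cycle genes were among them: 28 genes of G1 and S phase had a median of 0.14 and 35 of G2 and M phase one of 0.10, against 0.13 and 0.22 in untreated cells over the same step. Ribosomal proteins (58 tested, median 0.025), oxidative phosphorylation (29, -0.07), cholesterol synthesis (20, 0.00), YAP and TAZ targets (12, -0.04) and primary cilium genes (22, -0.03) were near the median of all genes. In the NF-kB and cytokine list (12 tested) 10 members lay above 0, with a median of 0.10 and 2 at an unadjusted p under 0.05.

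The time step was also measured in untreated cells, where edgeR called 1 gene (0.00736%), DESeq2 65, and 991 genes (7.29%) had an unadjusted p under 0.05. The untreated libraries varied more among themselves: the biological coefficient of variation was 16.1% in the 6 untreated and 8.99% in the 6 treated libraries. Of the 247 genes called in treated cells, 122 (49.4%) had the same sign in untreated cells, against 51% of all genes tested. The shares were 58.3% for the genes that rose and 35.4% for those that fell. The treated and untreated comparisons share no library.

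The test of the difference, the change in treated minus the change in untreated cells over all 12 libraries, called 21 genes (0.155%), 8 (0.0589%) higher and 13 (0.0956%) lower, and 1412 (10.4%) had an unadjusted p under 0.05. Of the 247 genes, 14 were among the 21. MALL, a membrane raft protein, had the smallest p of the genes with a symbol: it was at 31.7, 35.6 and 32.2 CPM in T1 and 42.2, 61.1 and 57.1 CPM in T2, while untreated cells were at 152, 143 and 155 CPM in C1 and 103, 93.1 and 90.1 CPM in C2. The T2 libraries lay above T1 and the C2 libraries below C1, and the difference was 1.34 ± 0.16 (edgeR adjusted p = 0.0122). MALL in T2 still lay below every untreated library. The change of MALL within treated cells (0.69 ± 0.12, edgeR adjusted p = 0.023) was lost without T1 replicates 1, 2 or 3 or T2 replicates 2 or 3 (edgeR adjusted p up to 0.126). GDPD2, a phosphodiesterase of glycerophospholipids, likewise lay higher in T2 than in T1 and lower in C2 than in C1. It went from 3.16, 4.29 and 2.95 to 7.02, 5.84 and 6.39 CPM in treated cells, with means of 9.49 ± 1.14 and 6.9 ± 0.858 CPM in C1 and C2. Unlike those of MALL, its T2 and C2 libraries overlapped. Its change in treated cells (0.89 ± 0.17, edgeR adjusted p = 0.0304) was kept only without T1 replicate 2 (up to 0.137 in the 5 other fits).

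The count of 21 rested on few libraries: it was 0 without C1 replicate 1 or T1 replicate 3, 2 without T2 replicate 2, 5 without C1 replicate 2, T1 replicate 1 or T2 replicate 3, and 9 or 11 without T1 replicate 2 or C1 replicate 3. It was 401 without C2 replicate 1, 95 without C2 replicate 2 and 42 without T2 replicate 1. Between replicates of C2 the chi-square per gene ran from 48.5 to 93, against 5.27 to 23.7 within T1 and T2. Their part in the differences beyond these values was not tested.

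**Figure D5:**
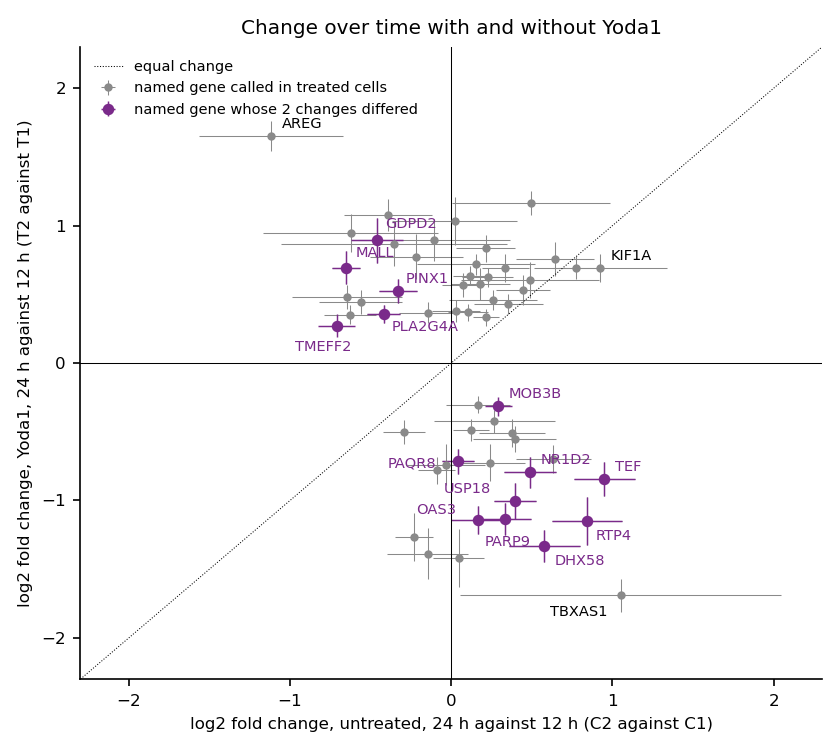
Log2 fold change from 12 h to 24 h in treated cells (y axis) against the same in untreated cells (x axis) for named genes, with error bars of 1 SE. Purple points are named genes whose changes differed by edgeR over 12 libraries. The interferon genes and TEF lie below the horizontal line at 0, and MALL and GDPD2 lie above it and left of the vertical line at 0.

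Of the IDs named Metazoa_SRP, copies of the signal recognition particle RNA, 3 had a mean of at least 1 CPM over all libraries. These 3 held the same value as each other in each 12 h library, treated or untreated. At 24 h 1 of them was at 0 in all 6 libraries while the other 2 were higher. The sum of the 3 was 8.17 to 12.9 CPM at 12 h and 10.2 to 12.6 CPM at 24 h. All 3 are among the 247 calls, and the only gene called in untreated cells is 1 of them. The ID at 0 is the only one in the table above 0 in all 12 h libraries and at 0 in all 24 h libraries. The labels do not say whether 12 h and 24 h libraries were quantified in 1 run, and a difference in processing between the times, which would enter every comparison of T2 with T1, was not tested.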

How the data were processed

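Stranded libraries of poly(A) RNA were sequenced as 101 bp pairs, per the labels' protocols. The submitters' processing notes name fastp 0.23.4, STAR 2.7.10b and RSEM 1.3.3; the build and the gene models are not given in the sources used. The authors deposited expected counts per gene, not normalized, and TPM, in which library totals are made equal; a deposited sample sheet (unit: other) gives condition, time and lane. Of 31121 IDs 13022 have a symbol. Levels of multigene families are uncertain, since RSEM may split reads among similar copies. No sequences or coordinates were used.

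Expected counts were rounded. Genes passing filterByExpr in the 6 treated libraries (13592, 7512 with a symbol) were scaled by TMM and tested with edgeR 4.0.16 (R 4.3.3, robust quasi-likelihood, no block), called at a Benjamini-Hochberg adjusted p under 0.05. SE is the absolute log2 fold change over the root of F. The untreated step and the difference were fitted likewise on 6 and 12 libraries. Levels are CPM with TMM over 12 libraries. The test was tested on simulated data. Alternatives were DESeq2 1.42.0, limma 3.58.1 voom, log2(TPM + 1), other scalings and filters, a replicate block and leaving out each library.

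The members and the 46 gene lists were chosen with earlier results of these data known. Named genes are PIEZO1, if the files name it, and CDH1; the 15 highest and 15 lowest called fold changes among genes with a symbol, at least 5 CPM and no overlap; the 5 smallest p per direction; up to 4 called members per list or, in lists with under 2 called, the 2 smallest p; and the 6 and 6 smallest p of the difference. Genes outside it are said to be chosen after their values were seen. Some results are not reported here.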

Additional observations from a re-analysis of the deposited data

Results flagged for a closer look

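The change over time differed between treated and untreated cells for 21 genes, by the test of the difference over 12 libraries (edgeR adjusted p under 0.05). Those named here are given as treated minus untreated log2 change. Higher in treated cells were MALL (1.34), GDPD2 (1.34), TMEFF2 (0.974), PINX1 (0.845) and PLA2G4A (0.766). Lower were RTP4 (-2), DHX58 (-1.92), TEF (-1.81), PARP9 (-1.48), USP18 (-1.41), OAS3 (-1.32), NR1D2 (-1.29), PAQR8 (-0.766) and MOB3B (-0.617). TMEFF2 and MOB3B were not called within treated cells (edgeR adjusted p = 0.134 and 0.0572). Each of the 14 kept its sign in the 18 alternatives run, and none kept its call in all of them: MALL was called in 15 and GDPD2, PINX1, MOB3B and PAQR8 in 8 each. No named difference was called without C1 replicate 1 or without T1 replicate 3.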

How the results depend on the processing

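For T2 against T1 the 247 calls became 577 with DESeq2 (51.6% higher against 61.1%), 17 with all 12 libraries in the fit and 45 to 389 without single libraries. The replicate numbers did not pair the libraries (correlations of deviations 0.267, 0.152 and -0.102 for replicates 1, 2 and 3); with the replicate block 1335 genes were called for T2 against T1 and 0 for the difference. The difference, 21 genes, gave 220 with DESeq2, 47 with a stricter filter and 0 to 401 without single libraries. C2 against C1, 1 gene, gave 65 with DESeq2 and 0 to 4 without single libraries. Of the 55 named genes called in T2 against T1, all kept their sign in every fit. Their call was kept by 17 without each library in turn, by 11 with all 12 libraries in the fit and by 8 in all fits. Among the named genes reported here signs turned in 3 markers of other cell types, none of them called: KDR (-0.08498 to 0.1229, below 0 without T1 replicate 2 and, at -0.0506, T2 replicate 3), VWF (-0.2671 to 0.02218, above 0 without T1 replicate 3) and CD8A (-0.4655 to 0.007527, above 0 without T1 replicate 2). The causes were not tested. With 3 libraries per group, small changes are not detectable.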

Other observations

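Some called genes of epithelial differentiation stand in no list and were chosen after their values were seen, and the 3 given here all rose. In the list of epithelial and renal tubule identity 1 of 14 genes tested was called (7.14%, against 1.82% of all genes tested). It was PROM1, which rose (0.89 ± 0.15, edgeR adjusted p = 0.0214), a call lost without T1 replicate 3 or T2 replicates 2 or 3. Of the 14, 10 lay below 0, with a median of -0.08. TFAP2A was the lowest (-0.77 ± 0.17) and was not called (edgeR adjusted p = 0.0524). UPK3A, a uroplakin of urothelium, was at 1.5, 2.42 and 1.57 CPM in T1 and 4.42, 5.17 and 4.99 CPM in T2 (log2 1.41 ± 0.20 SE, edgeR adjusted p = 0.00948). NCCRP1 rose from 1.21, 2.13 and 2.26 CPM to 4.29, 6.43 and 5.2 CPM (1.52 ± 0.24, edgeR adjusted p = 0.016), and the matrix protein gene NPNT, nephronectin, from 166, 138 and 160 CPM to 215, 243 and 244 CPM (0.60 ± 0.08, edgeR adjusted p = 0.00782). None of the 3 overlapped between the treated groups. In untreated cells UPK3A went from 5.37 ± 1.08 to 9.42 ± 4.76 CPM. The difference between both changes was not called for UPK3A, NCCRP1 or NPNT (edgeR adjusted p = 0.754, 0.338 and 0.824). NPNT stayed called whichever treated library was left out, while UPK3A lost its call without T1 replicate 3 (edgeR adjusted p = 0.0665) and NCCRP1 without T1 replicate 3 or T2 replicate 2 (up to 0.0538). The VEGF receptor FLT1 fell (-0.30 ± 0.06, edgeR adjusted p = 0.0464), as did the co-receptor NRP1 (-0.53 ± 0.09, edgeR adjusted p = 0.0225), both also chosen after their values were seen. In untreated cells the changes were -0.28 ± 0.21 for FLT1 and 0.25 ± 0.15 for NRP1, neither called. The differences between both changes were -0.03 ± 0.23 for FLT1 and -0.79 ± 0.19 for NRP1, and neither was called (edgeR adjusted p = 0.984 and 0.119). FLT1 kept its call only without T2 replicate 1 (up to 0.207 in the 5 other fits), and NRP1 lost it without T1 replicate 3 or T2 replicates 2 or 3 (up to 0.115).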
